A study of Mus musculus with 6 samples.

Results

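The genes described here are the 2 nonmuscle actins Actb and Actg1, the 4 tropomyosins Tpm1 to Tpm4, the 2 nonmuscle alpha-actinins Actn1 and Actn4, and Flna, which encodes filamin A. They were chosen by symbol and make up 9 of the 41388 genes counted in each sample. RNA-seq was performed on 3 samples of tumor initiating cells (TICs), which are CD24+CD90+CD45-, and on 3 samples of non-CD24+CD90+ tumor cells. The latter are CD45- cells negative for either or both markers and are called control tumor cells below. The series' own design text names the comparison group more narrowly, as CD24-CD90- cells. All 6 samples came from mammary tumors of FVB/N-TgN(MMTVPyVT)634Mul/J mice, in which a mouse mammary tumor virus (MMTV) promoter drives the polyoma middle T oncogene chiefly in mammary epithelium, so both groups carry the transgene, and the labels name no treatment. Each sample was a pool of several cell sorts, and the labels give no replicate numbers, so replicates 1 to 3 below are names only. The comparison asks whether the genes of the actin filament and its main crosslinkers were expressed at a different level in TICs than in the other tumor cells.

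Actin filaments give a cell its shape, bear its contractile force and anchor its adhesions. Beta- and gamma-actin are the subunits of the filaments of nonmuscle cells, and tropomyosins polymerize along the filament and set which myosins and severing factors reach it. Alpha-actinins tie filaments into bundles and link them to adhesions, and filamin A crosslinks them into networks beneath the membrane. In the mammary gland, contractile actin filaments are most prominent in myoepithelial cells and in the smooth muscle cells and pericytes of the vessels.

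Total counts lay between 6781239 and 9100552 per sample, and 3 counts corresponded to 0.33 to 0.442 CPM, the usual scale of counts relative to the sample's total. Expression is given as CPM normalized by edgeR's TMM method. TIC replicate 3 stood farthest from the other samples, with a mean root mean square difference in log2 CPM of 1.88 against 1.53 to 1.71 for the other 5. The summed expression of 9 fibroblast markers was 7950 to 11210 CPM in TICs and 3041 to 3372 CPM in control tumor cells, and that of 10 pericyte or smooth muscle markers was 964.7 to 1467 CPM against 543.3 to 677.7 CPM. The 11 luminal epithelial markers summed to 5806 to 8293 CPM in TICs and 8804 to 10280 CPM in control tumor cells. The sums of 9 basal or myoepithelial markers overlapped, at 897.6 to 1258 CPM against 950.0 to 1622 CPM, and those of 9 endothelial markers did too, at 325.4 to 1299 CPM against 245.6 to 330.2 CPM. The endothelial overlap rested on TIC replicate 1 at 325.4 CPM, while TIC replicates 2 and 3 had 588.2 and 1299 CPM. All 9 endothelial markers had a positive log2 fold change, and 0 were called. The 9 leukocyte markers summed to 299.5 to 381.3 CPM in TICs and 409.6 to 595.5 CPM in control tumor cells. Cd3e and Adgre1 had 0 counts in all samples. Only 4 of the 9 had enough counts to be tested. Of these, 1 had a positive log2 fold change, and it was higher in TICs at an adjusted p-value below 0.1 from exactTest. Of the sorting markers, Cd24a had 401.9, 404.5 and 602.0 CPM in control tumor cells and 439.7, 314.9 and 356.1 CPM in TICs, and Thy1, which encodes CD90, had 75.9, 56.7 and 21.6 CPM against 90.7, 206.9 and 70.3 CPM. Both overlapped between the groups (adjusted p = 0.985 and 0.35 from exactTest). By the paper's definition, control tumor cells may carry either marker alone. Why the RNA levels of these markers overlapped was not tested.

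None of the tested members passed the test for a difference between TICs and the control tumor cells. Of the 9 genes, 8 had more than 1 CPM in at least 3 samples and were tested, and 0 of these reached an adjusted p-value of less than 0.1 with exactTest of edgeR, against 1.55% of all 12192 genes tested. At an unadjusted p-value below 0.05 the count was also 0, against 7.85% of all genes. edgeR's quasi-likelihood test called 0 of the 8 and DESeq2 0, against 0.41% and 2.58% of all genes, respectively. The log2 fold changes were positive for Tpm2 and Tpm4, close to 0 for Actn4 and negative for the other 5, with a median of -0.09 where the median of all genes tested was -0.006. In 2 genes the groups did not overlap. Every TIC sample was above every control sample in Tpm2, a pattern found in 7.69% of all genes tested, and every TIC sample was below in Actb, a pattern found in 7.55%. For a single value, exact permutation of 3 and 3 samples gives p-values of 0.1 or more.

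**Figure D1:**
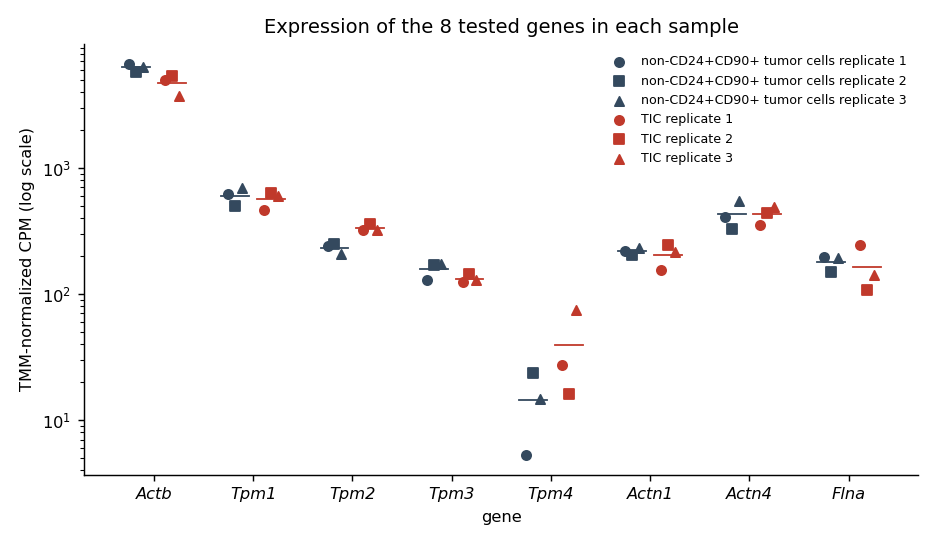
Expression of the 8 tested genes in each sample, as TMM-normalized CPM on a log axis, with a line at the mean of each group of 3 samples (blue, non-CD24+CD90+ control tumor cells, and red, TICs). The 3 TIC samples lie below all others in Actb and above all others in Tpm2, and in the other 6 genes the groups overlap.

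The 2 actin genes were counted at very different levels. Actb (ENSMUSG00000029580, chromosome 5 of GRCm38, 142903115 to 142906754, minus strand) encodes beta-actin. It had 6729, 5796 and 6315 CPM in control tumor cells and 4994, 5396 and 3722 CPM in TICs, and ranked sixth and eighth by mean CPM in these groups. All 3 TIC samples were thus below the lowest of the others, and TIC replicate 3 was the lowest of all. The means were 4704 ± 874.2 CPM in TICs and 6280 ± 467.1 CPM in control tumor cells (SD, n = 3). The log2 fold change was -0.42 (SE 0.27, 95% interval -0.96 to 0.12, adjusted p = 0.884 from exactTest). Without TIC replicate 3 the log2 fold change was -0.25. The luminal marker Krt18, a keratin, had the same order of groups, with 2814, 2662 and 2493 CPM against 1821, 1552 and 1563 CPM in TICs (adjusted p = 0.295 from exactTest). Malat1, a long noncoding RNA kept in the nucleus, had the opposite order, with 14100, 8054 and 6379 CPM in control tumor cells and 17670, 32620 and 43930 CPM in TICs, and it rose in TICs (log2 fold change 1.72, SE 0.38, adjusted p = 0.00334 from exactTest). Its highest value was in TIC replicate 3, the sample with the lowest Actb. Krt18 comes from the list of 11 luminal markers, of which 0 were called in either direction and 2 had a positive log2 fold change. Whether the smaller luminal marker sum or the higher Malat1 level of the TIC samples has a part in the lower Actb values was not tested. In sorted bulk samples, fewer cells of a type and less RNA per cell cannot be told apart.

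Actg1 (ENSMUSG00000062825, chromosome 11, 120345690 to 120348542, minus strand) encodes gamma-actin and is broadly expressed in nonmuscle cells. It had 1, 11 and 1 counts in control tumor cells and 0, 1 and 0 counts in TICs. It did not pass the filter, and both groups were at or near the 3 counts taken as the floor. The planned test of the ratio of Actb to Actg1 could not be made, since 2 samples had no Actg1 count, and the summed actin level equals that of Actb to within 2 CPM in each sample. It differed by -0.43 on the log2 scale between TICs and the other cells (exact permutation test, two-sided, p = 0.1).

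Other genes in wide use were also counted at or near 0. Gapdh, a glycolytic enzyme, had 16 counts in replicate 2 of control tumor cells and 0 in the other 5 samples. Vcl and Ilk, which encode vinculin and integrin-linked kinase of focal adhesions, had at most 35 counts in a sample and 0 counts in all samples, respectively. These 3 genes were picked after their values were seen. Genes picked in this way cannot tell why Actg1 was low. The Actg1 counts are not read here as an absence of gamma-actin RNA, and their cause was not tested.

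The authors kept only uniquely mapped reads, so the sequences of the members bear on what could be counted. The first 90 coding bases of Actb and Actg1, from the GENCODE transcripts of GRCm38, are shown to let the reader see how the actins differ. Capitals mark the 16 positions at which they differ.
Actb: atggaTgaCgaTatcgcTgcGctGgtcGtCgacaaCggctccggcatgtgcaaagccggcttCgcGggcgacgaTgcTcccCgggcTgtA
Actg1: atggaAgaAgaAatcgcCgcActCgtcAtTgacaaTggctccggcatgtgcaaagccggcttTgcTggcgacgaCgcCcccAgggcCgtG

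Over their 1128 coding bases, Actb and Actg1 differed at 128 positions (88.7% identity), and their longest identical run was 62 bases. The similarity to other loci was measured as the share of all 100-base windows of a gene's annotated transcripts that occur, on the same strand, in a transcript of another gene. This share was 29.9% for Actg1 (946 of 3163 windows), most of it with the locus Gm12715 (823 windows). It was 0.644% for Actb and 20.9% for Gapdh, and it was not measured for Vcl and Ilk. The remaining windows of Actg1 were not found in another annotated transcript. Copies outside the annotated transcripts were not searched, the read length is not given in the sources used here, and the part of these shared windows in the low Actg1 counts was not tested.

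Among the tropomyosins, Tpm2 and Tpm4 had higher means in TICs, while Tpm1 and Tpm3 were slightly below the other cells, and none of these differences passed the test. Tpm2 (ENSMUSG00000028464, chromosome 4, 43514711 to 43523765, minus strand), which encodes beta-tropomyosin and is abundant in muscle, had 239.8, 251.0 and 208.5 CPM in control tumor cells and 320.9, 355.9 and 319.0 CPM in TICs. The lowest TIC sample was well above the highest of the others. The means were 332 ± 20.8 and 233.1 ± 22.0 CPM (SD, n = 3), a log2 fold change of 0.51 or a 1.42-fold higher level (SE 0.28, 95% interval -0.03 to 1.05, adjusted p = 0.711 from exactTest). It stayed between 0.44 and 0.57 in the 6 fits that omitted a sample. The summed pericyte or smooth muscle markers were also higher in every TIC sample. Of the 10 markers, 9 had a positive log2 fold change and 1, Rgs5, was called higher (1.45, adjusted p = 0.000466 from exactTest), while the exception was Acta2 at -0.01. Acta2, smooth muscle actin, had 118.6, 155.8 and 198.4 CPM against 108.8, 224.1 and 136.4 CPM in TICs and overlapped, whereas Tagln, which encodes transgelin, had 3.21, 6.47 and 12.6 CPM against 15.1, 28.3 and 14.8 CPM. The summed fibroblast markers were higher in every TIC sample too. All 9 of them had a positive log2 fold change, and 6 were called higher. The part of any of these cell types in the Tpm2 values was not tested.

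Tpm4 (ENSMUSG00000031799, chromosome 8, 72134975 to 72153142, plus strand), a tropomyosin of nonmuscle cells, was the member with the widest spread. It had 5.25, 23.5 and 14.6 CPM in control tumor cells and 27.4, 16.2 and 74.3 CPM in TICs. TIC replicate 2 lay within the range of the other cells, so that the groups overlapped. The log2 fold change of 1.44 had a SE of 0.75 (95% interval -0.03 to 2.91, adjusted p = 0.697 from exactTest), and it was 0.61 without TIC replicate 3 and 1.98 without replicate 2 of the control tumor cells. The underlying counts ranged from 36 to 563. Of its 2104 windows of 100 bases, 7.37% occurred in another locus, Gm7809, which had 0 counts.

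Tpm1 (ENSMUSG00000032366, chromosome 9, 67022590 to 67049406, minus strand), which encodes alpha-tropomyosin, had the most counts of the 4 genes. It had 622.7, 495.0 and 688.0 CPM in control tumor cells and 463.5, 636.6 and 597.9 CPM in TICs. The groups overlapped over most of their range, and the log2 fold change was -0.09 (SE 0.28, 95% interval -0.65 to 0.47, adjusted p = 1 from exactTest). It turned positive in 2 of the 6 fits with a sample left out, to at most 0.05.

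Tpm3 (ENSMUSG00000027940, chromosome 3, 90072649 to 90100902, plus strand), which encodes gamma-tropomyosin, had 128.7, 170.9 and 171.4 CPM in control tumor cells and 124.1, 142.7 and 129.0 CPM in TICs. The TIC samples were in the lower part of the range, and replicate 1 of the other cells lay among them. Its log2 fold change was -0.25 (SE 0.31, 95% interval -0.85 to 0.35, adjusted p = 1 from exactTest). These counts are uncertain because the locus Tpm3-rs7 (ENSMUSG00000058126) is nearly the same in sequence, as the first 90 coding bases show, in which capitals mark the only difference.
Tpm3: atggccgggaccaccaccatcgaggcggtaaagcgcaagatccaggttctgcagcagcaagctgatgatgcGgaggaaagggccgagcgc
Tpm3-rs7: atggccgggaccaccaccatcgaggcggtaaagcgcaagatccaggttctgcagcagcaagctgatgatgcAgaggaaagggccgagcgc

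Over the 747 coding bases of the most similar transcripts, Tpm3 and Tpm3-rs7 differed at 3 positions, and the longest identical run was 620 bases. In all, 15.8% of the 100-base windows of Tpm3 occurred in Tpm3-rs7. Tpm3-rs7 itself had 478, 454 and 356 counts in control tumor cells and 473, 379 and 387 counts in TICs. Its log2 fold change was -0.23 (SE 0.42, adjusted p = 1 from exactTest). Reads that fit both loci equally well were not counted for either in the authors' processing, and how many were lost was not tested. The tropomyosins are less alike among themselves, with 72.3% to 80.5% identity between coding sequences of equal length and identical runs of at most 35 bases. Tpm1 and Tpm2 shared no 100-base window with another gene.

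Summed over the 4 genes, tropomyosin expression was 996.4, 940.3 and 1083 CPM in control tumor cells and 935.8, 1151 and 1120 CPM in TICs, with a difference in mean log2 CPM of 0.08 (exact permutation test, two-sided, p = 0.6). It ran from 0.03 to 0.18 when a sample was left out, the latter without TIC replicate 1. The makeup of this sum was compared within each sample as the share of each gene in the tropomyosin counts, after division by the length of its annotated exons. This measure does not depend on the normalization between samples. Tpm2 held 40.8%, 42.9% and 33.7% of it in control tumor cells and 51.4%, 48.7% and 42.7% in TICs, and TIC replicate 3 was just below replicate 2 of the other cells. Tpm1 held 47.5%, 37.9% and 49.9% against 33.3%, 39.1% and 35.9%, so that Tpm2 exceeded Tpm1 in all 3 TIC samples and in 1 of the 3 others. Tpm3 held 10.5%, 13.9% and 13.2% against 9.5%, 9.33% and 8.26%, with every TIC sample below every other. Tpm4 held 1.18%, 5.3% and 3.12% against 5.79%, 2.93% and 13.1%.

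The mean share of Tpm2 was 8.47 percentage points higher in TICs, and that of Tpm1 fell by 9.03 points. The exact permutation tests (two-sided, adjusted over the 4 genes) gave adjusted p = 0.267 for Tpm1, Tpm2 and Tpm3, and 0.3 for Tpm4. None reached significance, and none could, since the smallest possible p-value was 0.1. The order of the genes and the separation of the groups depended on the division by length. Of the counts as such, Tpm1 held more than Tpm2 in all 6 samples. Tpm2 then held 24.1%, 26.7% and 19.3% in control tumor cells and 34.3%, 30.9% and 28.5% in TICs, without overlap (exact permutation test, two-sided, p = 0.1, adjusted p = 0.267), whereas Tpm3 held 12.9%, 18.2% and 15.8% against 13.3%, 12.4% and 11.5% and overlapped. Each tropomyosin gene makes several transcripts of unlike length, which the counts per gene do not separate.

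**Figure D2:**
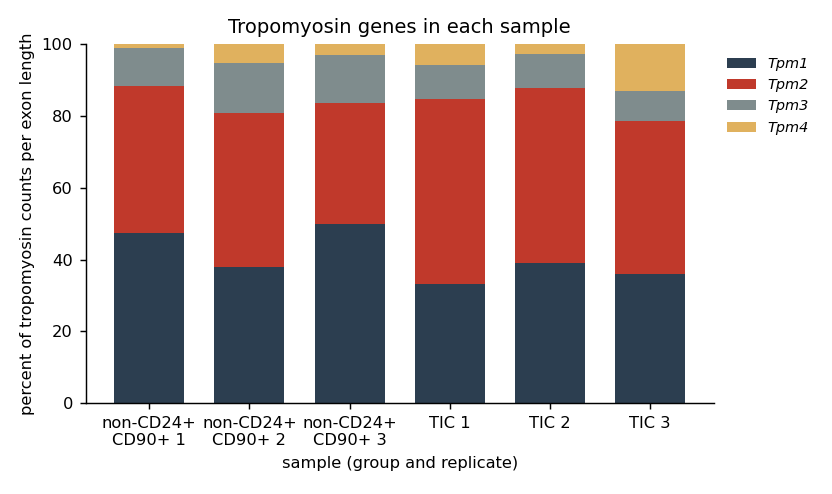
Share of each tropomyosin gene in the summed tropomyosin counts per exon length (percent, bars stacked to 100) in each of the 6 samples. The Tpm2 part spans 33.7% to 42.9% in control tumor cells and 42.7% to 51.4% in TICs, and the Tpm4 part is widest in TIC replicate 3 at 13.1%.

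The crosslinkers overlapped between the groups. Actn4 (ENSMUSG00000054808, chromosome 7, 28893248 to 28962340, minus strand) encodes alpha-actinin 4, which bundles filaments in nonmuscle cells. It had 410.8, 327.2 and 543.0 CPM in control tumor cells and 350.3, 440.6 and 490.8 CPM in TICs. Both means were close to 427 CPM, and the log2 fold change was 0.001 with a SE of 0.30 (95% interval -0.59 to 0.59, adjusted p = 1 from exactTest). Actn1 (ENSMUSG00000015143, chromosome 12, 80167547 to 80260371, minus strand), the gene of alpha-actinin 1, had 219.5, 204.7 and 229.9 CPM against 156.1, 244.0 and 214.8 CPM in TICs. TIC replicate 1 was the lowest of the 6 samples and TIC replicate 2 the highest, and the log2 fold change was -0.09 (SE 0.30, 95% interval -0.68 to 0.50, adjusted p = 1 from exactTest). It was 0.09 without TIC replicate 1.

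The log2 ratio of Actn1 to Actn4 counts was -0.94 ± 0.28 in control tumor cells and -1.07 ± 0.19 in TICs (SD, n = 3; exact permutation test, two-sided, p = 0.7). Flna (ENSMUSG00000031328, chromosome X, 74223461 to 74249820, minus strand) had 196.3, 148.8 and 193.8 CPM in control tumor cells and 242.9, 108.2 and 140.3 CPM in TICs. The TIC samples included both the highest and the lowest value. Its log2 fold change was -0.13 (SE 0.35, 95% interval -0.82 to 0.55, adjusted p = 1 from exactTest), and it was 0.10 without TIC replicate 2. No 100-base window of Actn1, Actn4 or Flna occurred in another gene.

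**Figure D3:**
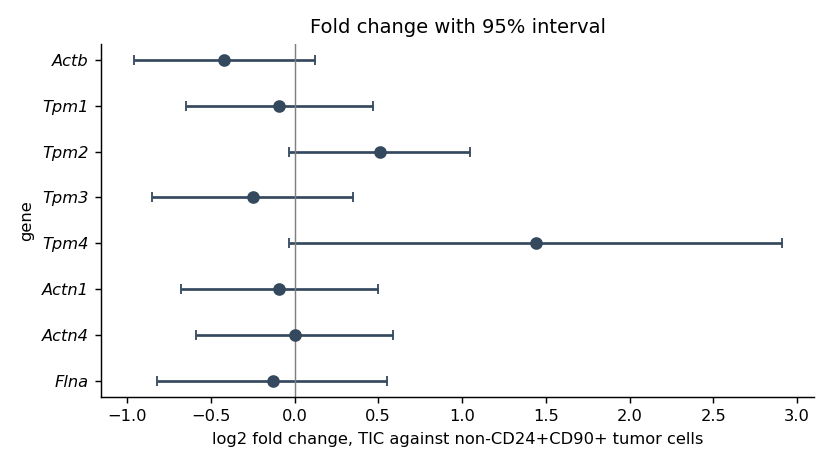
Log2 fold change of TICs against control tumor cells for the 8 tested genes (points), with 95% intervals from the negative binomial fit (bars) and a line at 0. All 8 intervals include 0, and the interval of Tpm4 is the widest, from -0.03 to 2.91.

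The intervals set how large a difference could have been missed. For Tpm1, Actn1 and Actn4 they reached at most 0.68 on the log2 scale in either direction, so these data leave room for differences of that size. A p-value above the threshold does not show that the levels were alike.

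Levels were compared between genes as CPM per kilobase of annotated exons. Actb was far above all other members, at 1756 ± 326.3 in TICs and 2344 ± 174.4 in control tumor cells (SD, n = 3). In TICs it was followed by Tpm2 at 114.1 ± 7.14, Tpm1 at 87.3 ± 14.0, Actn4 at 69.7 ± 11.6, Actn1 at 37.0 ± 8.10, Tpm3 at 21.7 ± 1.58, Tpm4 at 17.8 ± 14.0 and Flna at 17.4 ± 7.49. In control tumor cells Tpm1 came next at 92.8 ± 15.1, then Tpm2 at 80.1 ± 7.56, Actn4 at 69.7 ± 17.8, Actn1 at 39.4 ± 2.29, Tpm3 at 25.8 ± 4.02, Flna at 19.1 ± 2.85 and Tpm4 at 6.56 ± 4.14. Tpm1 and Actn4 overlapped between samples in both groups. Tpm1 and Tpm2 overlapped in control tumor cells, while in TICs the lowest Tpm2 sample was above the highest Tpm1 sample. This order depended on the division by length. In CPM, the means of Tpm1 and Tpm2 were 566.0 and 332.0 in TICs and 601.9 and 233.1 in control tumor cells. Tpm3, Tpm4 and Flna could not be ordered in TICs.

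Serum response factor (SRF) drives many actin genes from a short motif called the CArG box, and the promoters of the members were searched for it. RefSeq promoter windows of GRCm38.p6, from 250 bases before to 50 bases after the start of transcription, were matched for 8 members, all but Actb, with 2 windows for Tpm3. The motif reads the same on both strands. It occurred in 1 of these 9 windows, that of Actg1, and in 1.63% of all 32851 windows. The 30 bases around it, at chr11:120348566-120348595 on the minus strand, are shown because this is the one match, with the CArG box in capitals, which begins 90 bases before the start.
Actg1 promoter: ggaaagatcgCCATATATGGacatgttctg

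Such a match is a description of the sequence and not evidence of binding, and these windows do not hold sites that lie farther away. Srf itself had 94.6, 110.0 and 100.1 CPM in control tumor cells and 66.4, 53.3 and 87.6 CPM in TICs. Every TIC sample was below every other sample, and the log2 fold change of -0.56 did not pass the test (SE 0.36, adjusted p = 0.875 from exactTest).

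In the wider actin cytoskeleton, described by 7 lists with 98 tested genes, 2 genes rose in TICs and 0 fell. This is 2.04% of the genes tested, close to the 1.55% among all genes, of which 1.36% were called higher and 0.189% lower. Groups without overlap were found in 9 of the 98 genes with every TIC sample above (9.18%) and in 5 with every TIC sample below (5.1%), against 7.69% and 7.55% of all genes. Of the 98 genes, 61 had a positive and 37 a negative log2 fold change, with a median of 0.17. The medians of the lists with 3 or more tested genes ran from -0.01 to 0.36.

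Ablim1, which encodes an actin-binding LIM protein, was called among 24 tested bundlers and filament binders. It had 29.8, 37.3 and 29.9 CPM in control tumor cells and 51.3, 94.9 and 143.4 CPM in TICs, a log2 fold change of 1.58 (SE 0.45, adjusted p = 0.0608 from exactTest). Sptbn1, a spectrin that joins short actin filaments to the membrane, was called among 19 tested adhesion and membrane linkers. It had 219.3, 223.9 and 126.7 CPM against 331.5, 337.5 and 530.4 CPM in TICs, a log2 fold change of 1.07 (SE 0.33, adjusted p = 0.0922 from exactTest). TIC replicate 3 was the highest sample for both, and leaving out any one sample other than TIC replicate 1 ended both calls. Without TIC replicate 3, the log2 fold changes were 1.20 and 0.84 and the adjusted p-values of exactTest 0.396 and 0.342.

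The most abundant genes of the lists did not pass the test. Among the filament binders were Cald1, which encodes caldesmon and ranged from 663.2 to 910.3 CPM in control tumor cells and from 705.8 to 2447 CPM in TICs (log2 fold change 0.91 ± 0.39 SE), and Palld, which encodes palladin (-0.07 ± 0.29). Cald1 was called only when TIC replicate 1 was left out (log2 fold change 1.25, adjusted p = 0.0284 from exactTest). Of the actin turnover list, 0 of 19 tested genes were called. Tmsb4x, which encodes thymosin beta 4, the main buffer of actin monomers, had 2343, 2129 and 2373 CPM against 3649, 3146 and 3851 CPM in TICs, with every TIC sample above (log2 fold change 0.64 ± 0.26 SE, adjusted p = 0.376 from exactTest). Of the alternatives run, only DESeq2 called it (adjusted p = 0.00274), together with a lower level of Lcp1, which encodes the leukocyte plastin (log2 fold change -0.81, adjusted p = 0.0278). Tmsb10, a related thymosin, had a log2 fold change of 0.12 ± 0.31 (SE).

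Of 9 tested myosin II genes 0 were called, with Myh9, the nonmuscle heavy chain IIA, at 2094 ± 431.2 and 2300 ± 116.9 CPM (SD, n = 3) and Mylk, myosin light chain kinase, at 338.6 ± 197.4 and 329.5 ± 15.02 CPM in TICs and the other cells. Of 23 tested nucleation genes 0 were called, and the Arp2/3 subunits Arpc1b and Arpc1a had log2 fold changes of 0.10 ± 0.27 and -0.20 ± 0.28 (SE). The membrane linkers Rdx and Ezr, which encode radixin and ezrin, had 0.34 ± 0.31 and -0.36 ± 0.30 (SE).

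Among the relatives of the members, 0 of 3 tested muscle actins were called, with log2 fold changes from -0.81 to 1.69. Acta2 had a log2 fold change of -0.01 ± 0.35 and Acta1, skeletal actin, of -0.81 ± 1.39 (SE). Flnc, the muscle filamin, was not called, with 1.14 ± 0.93 (SE). It had 5.25, 13.8 and 10.6 CPM in control tumor cells and 44.5, 9.79 and 11.2 CPM in TICs. Only TIC replicate 1 was thus above the range of the control tumor cells. Actn2, Actn3 and Actc1, genes of the sarcomere, did not pass the filter.

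**Figure D4:**
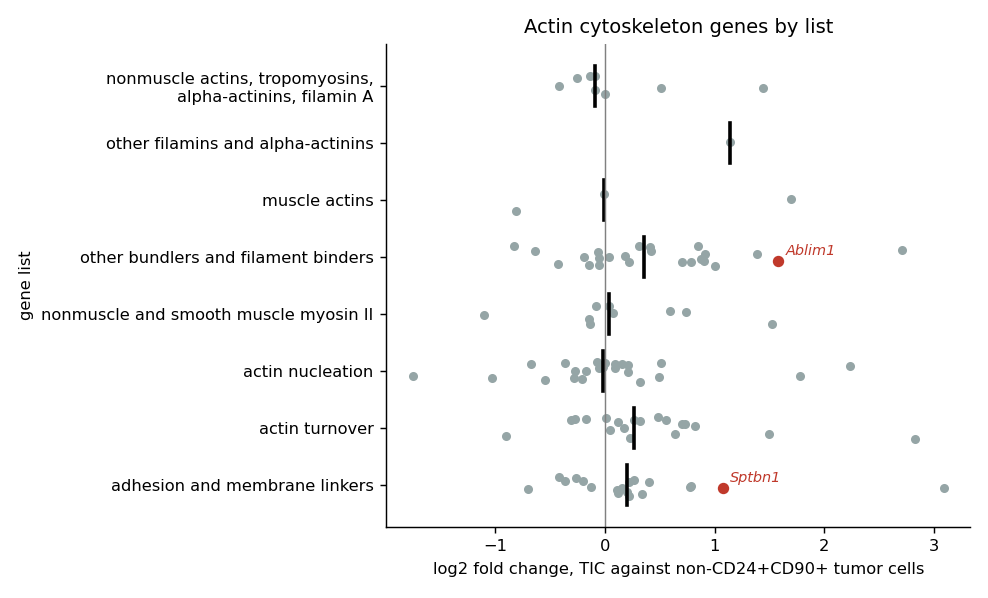
Log2 fold change of every tested gene (points) in the 7 lists and in the members, TICs against control tumor cells, with the median of each list as a black bar. Red points are genes with an adjusted p-value below 0.1 in exactTest, which are Ablim1 and Sptbn1. Points are spread vertically at random within a list.

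The genes most like the members over the 6 samples were sought among 3789 other genes with at least 50 CPM on average, by the root mean square difference of their centred log2 CPM from the mean profile of the 8 tested members. These were Rpn2, Spns1, Dnmt3a, Grn and Irf2, with differences of 0.056, 0.069, 0.071, 0.075 and 0.081, where the median gene differed by 0.405. The members' mean profile was nearly flat, from -0.19 in replicate 1 of control tumor cells to 0.18 in TIC replicate 3. This flatness does not describe each member, since the mean joins genes of opposite direction, such as Actb and Tpm4, which were lowest and highest in TIC replicate 3. The genes closest to the mean were likewise flat, and they resemble this mean rather than any one member. Rpn2, which encodes a subunit of the oligosaccharyltransferase, ranged from 353.9 to 494.4 CPM over all samples and Dnmt3a, a DNA methyltransferase, from 129.5 to 163.2 CPM.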

How the data were processed

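The authors trimmed reads with Trimmomatic (version 0.32), aligned them to GRCm38 with STAR (version 2.4.0), discarded multiply mapped reads and deposited raw counts per Ensembl gene from HTSeq. Strand setting and annotation release are not given in the sources used here. Libraries were made from 120 ng of RNA. Symbols, exon lengths and transcripts came from GENCODE M21, which named 40254 of 41388 genes.

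The 12192 genes above 1 CPM in 3 or more samples were compared with exactTest of edgeR (version 4.0.16, R version 4.3.3) with TMM, common and tagwise dispersions and Benjamini-Hochberg adjustment over all tested genes, at 0.1. The value of the CPM filter is not stated by the authors. Standard errors came from the negative binomial fit, and 95% intervals are normal. The common dispersion was 0.678. Sums, ratios and shares were compared by exact permutation. The scripts were tested on simulated counts with larger changes than those estimated for the members. That test does not show whether differences of the members' size could be found. Permutation p-values rest on the values of the pooled samples alone. Those of exactTest, and the standard errors, also draw on the spread of other genes through the tagwise dispersions. They can therefore be larger or smaller than a gene's own spread between pooled samples would give.

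Alternatives were the quasi-likelihood test, library size alone, RLE size factors, DESeq2 (version 1.42.0), no filter, at least 10 counts in every sample, a threshold of 0.05, counts not divided by length and each sample left out.

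The members and lists were chosen with earlier results of these data known. Named were all members, in each list the called genes and the 2 other tested genes with the highest mean CPM, the 5 genes most like the members, and related loci with counts. Krt18, Tagln, Srf, Malat1, Cd24a, Thy1, Rgs5, Gapdh, Vcl, Ilk and Lcp1 were added after their values were seen. A further gene and a further list are not reported here.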

Additional observations from a re-analysis of the deposited data

How the results depend on the processing

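No paired analysis was possible because the labels give the samples no replicate numbers. In all 13 alternatives 0 of the members were called, and the adjusted p-values lay between 0.339 and 1 for Actb, 0.293 and 1 for Tpm2 and 0.402 and 1 for Tpm4. The threshold of 0.05 reused the main fit, so its 0 calls and its unchanged fold changes were fixed in advance. Actb, Tpm2, Tpm3 and Tpm4 kept their direction in every alternative, with -0.52 to -0.25, 0.44 to 0.57, -0.36 to -0.18 and 0.61 to 1.98 on the log2 scale when a sample was left out. Those near 0 did not: with a sample left out, the log2 fold change ran from -0.21 to 0.05 for Tpm1, from -0.23 to 0.09 for Actn1, from -0.16 to 0.21 for Actn4 and from -0.52 to 0.10 for Flna, and the log2 difference in the ratio of Actn1 to Actn4 from -0.28 to 0.00. Actn4 was at -0.06 with library size alone.

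The called genes among filament binders numbered 0 by the quasi-likelihood test, without the filter and at the threshold of 0.05, 2 by DESeq2 and 0 to 2 with a sample left out. Those among adhesion and membrane linkers numbered 0 by the quasi-likelihood test, with library size alone, without the filter and at 0.05, and 0 to 2 with a sample left out. DESeq2 called 1 gene of actin turnover. Over all genes, 189 were called by exactTest, 50 by the quasi-likelihood test, 306 by DESeq2, 112 without the filter, 116 at 0.05 and 72 to 323 with a sample left out. The cause of these differences was not tested. With counts not divided by length, the mean share of Tpm2 in the tropomyosin counts was 31.2% in TICs and 23.3% in the other cells.

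Actg1 could not be compared, with counts at or near the floor of 3, and the cause of its low counts was not tested. The 3 samples per group limit the sums, ratios and shares, for which no p-value below 0.1 was possible. Intervals cover the spread that edgeR estimates and not reads lost before counting.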
